A study of Mus musculus and Homo sapiens with 12 samples.

Results

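Chromosome 9 of the mouse reference begins, after its unsequenced end, with a block of pericentromeric major-satellite repeat, and a small family of predicted genes is annotated on that repeat. All genes in the first 45 kb of that block, from position 3000000 of chromosome 9 (mm10, GRCm38), were taken as members, together with every peak in the same window. This gave 11 of the 54446 mouse genes in the count tables. The window was chosen by the ratio of pulled-down to Input RNA in mouse embryonic stem cells, which Gm10717 and Gm11168 led. That ratio is therefore given here for the members as a description without a test. A total of 8 genes were named at the outset (Gm11168, Gm10717, Gm10715, Gm10718, Gm10719, Gm10720, Gm10721 and Gm10722), and the window also held Gm26870, Gm17535 and Mir101c.

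The RNA came from wild-type mouse embryonic stem cells (mES cells), a line received as a gift, grown in medium with serum, LIF and the inhibitors CHIR99021 and PD0325901, and cleared of feeder cells by passage on gelatin. RNA of the chromatin fraction (caRNA) was broken into fragments, and those bearing 5-methylcytosine (m5C) were pulled down with an anti-m5C antibody. There were 3 such IP libraries and 3 Input libraries made without pull-down, all of the same genotype and treatment. A further 6 libraries came from human K562 cells and were not used here, because these genes are mouse genes.

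Major satellite is the AT-rich tandem repeat that fills the heterochromatin beside the centromeres of mouse chromosomes. It is kept silent by repressive histone marks and DNA methylation at its CpG sites, and it is known to be transcribed from both strands, weakly in most cells and more strongly in early embryos. In RNA, m5C is placed by methyltransferases such as NSUN2, and an m5C antibody enriches fragments that carry it. Copies of the repeat are near-identical, so a read from one copy can often be placed on several, and the sum over the family is therefore given beside each gene.

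The sequence of the window showed what these genes have in common. Over the first 38 kb the best repeat period was 234 bases, at which 71.2% of bases matched the base one period later. The 234-base stretch whose 31-mers occurred most often in the genome lay inside Gm10718 at chr9:3024397-3024630 and is shown as the repeat unit, plus strand, with CpG sites in capitals.
repeat unit: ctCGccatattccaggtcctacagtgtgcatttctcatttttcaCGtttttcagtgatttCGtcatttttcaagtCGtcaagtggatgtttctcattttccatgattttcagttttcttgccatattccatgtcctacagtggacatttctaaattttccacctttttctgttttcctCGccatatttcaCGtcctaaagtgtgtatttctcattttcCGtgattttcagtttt
Each 31-base word of this unit occurred a median of 104.5 times in the genome, and no word was found only once. On the plus strand the unit held 7 CpG sites and 23.1% C against 45.7% T.

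All 9 plus-strand genes were made of this unit from end to end. Cut into pieces of 117 bases, their spans matched the unit with a median identity of 94.9% to 96.6%, and no piece fell below 85.5%. The unit ran in the same orientation in each of them. Gm26870, a long non-coding RNA gene on the minus strand that spans nearly the whole repeat, gave a median of 95.7% over 325 pieces.

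From 39 kb on the sequence changed. The best period there was 31 bases (65.6% identity), G rose to 28.9% on the plus strand, and CpG sites fell to 3.33 per kb, against 20.2 per kb in the first 38 kb. A stretch of 124 bases from this second repeat, at chr9:3041000-3041123 on the plus strand, is shown for contrast, again with CpG sites in capitals.
31-base repeat: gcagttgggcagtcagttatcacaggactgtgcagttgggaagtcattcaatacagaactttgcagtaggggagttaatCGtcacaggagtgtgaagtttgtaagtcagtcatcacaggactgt
No gene is annotated in that second repeat. Mir101c, the gene of a microRNA precursor, lies at chr9:3038669-3038743 on the minus strand, between the repeats, and it had 0 counts in all 6 libraries.

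In Input, few reads were counted on these genes. Records aligned at more than 1 place are not in these counts, and in Input they made up 6.35% to 6.66% of records. In IP they made up 26.8% to 27.0%, and how many came from the satellite is not known. The 11 genes together took 62, 55 and 57 counts in Input replicates 1, 2 and 3, out of 29007088 to 34752646 gene counts per library. Scaled to gene counts per library, that is 1.81 ± 0.280 CPM (counts per 1000000 gene counts, SD, n = 3). In IP the same genes took 1887, 2703 and 2120 counts, although the IP libraries held only 473398 to 592324 gene counts. The family sum was 4054 ± 512 CPM in IP (SD, n = 3), and the 3 IP libraries all lay far above the 3 Input libraries. If the family were 1 gene, it would rank 4th to 6th of all genes in the IP libraries and 12740th to 13336th in the Input libraries.

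The ratio of mean CPM for the family was 2235. In the edgeR fit of all genes, with the family entered as 1 gene, log2 IP/Input was 10.16 (SE 0.11), or 10.33 above the median of all tested genes, which was itself -0.17. With library size alone as the scale it was 11.13, and with any 1 of the Input libraries left out it was 10.77 to 10.97. Library composition bears on the size of this value. Summary records, which fell in no gene, in overlapping genes or at more than 1 place, made up 71.4% to 71.7% of records in IP against 19.01% to 19.3% in Input, and with all records as the library size the ratio was 785. Those in no gene alone made up 9.62% to 9.68% of records in Input and 43.5% to 43.9% in IP. The part of these shares in the family value was not tested. The ratio is not scaled to spike-in RNA. RNA and any DNA left in the chromatin fraction cannot be told apart in these counts, and the part of either was not tested. In bulk libraries fewer cells with such RNA and less RNA per cell cannot be told apart. Intervals and floors here cover counting error only, because reads were counted without molecular identifiers.

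**Figure D1:**
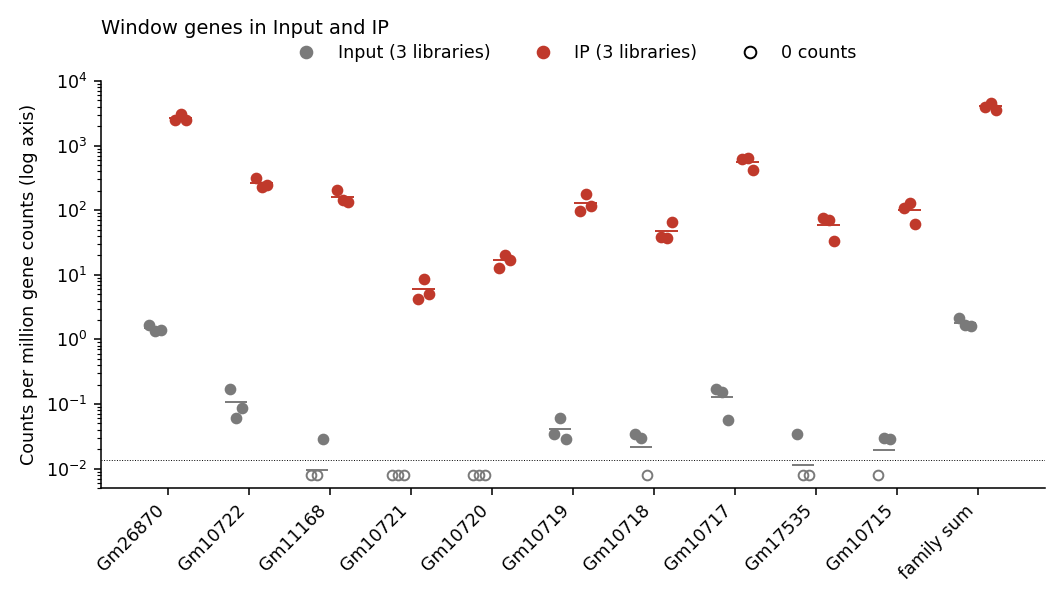
Levels in CPM (log axis) of the 10 window genes with counts and of their sum, for each Input (grey) and IP (red) library. Bars are means of 3 libraries, and open circles below the dotted line mark libraries with 0 counts. For every gene shown, the 3 IP values lie above the 3 Input values.

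Of the 11 genes, 10 had counts and 9 passed the filter on low counts. In all 9 the IP values lay above the Input values. Among all 20244 genes, 47.7% had no overlap in that direction, and edgeR's quasi-likelihood test called 82% in either direction and 39.9% higher in IP. The same ratio chose the window, and most of these genes passed the filter through their IP counts alone, so the count was fixed by the choice, no test is given for the members, and nothing is read from these shares.

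Gm26870 carried most of the family. It had 49, 44 and 49 counts in Input and 1187, 1839 and 1469 in IP, or 1.48 ± 0.188 and 2705 ± 366 CPM (SD, n = 3). It was the only member with more than 5 counts in any Input library. Its log2 IP/Input was 9.87 (SE 0.12), which is the second lowest of the 9 tested members but by far the best measured.

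Gm10717 was the most abundant of the plus-strand genes in IP. It had 5, 5 and 2 counts in Input and 295, 381 and 251 in IP, with a mean of 565 ± 123 CPM in IP (SD, n = 3). Its log2 IP/Input of 11.09 (SE 0.26) was the third largest among all tested genes. Gm10722, the first plus-strand gene of the block, had 5, 2 and 3 counts in Input and 148, 136 and 144 in IP. Its log2 IP/Input was 10.23 (SE 0.29), so it resembled the family sum more than it resembled Gm10717.

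Gm11168 ranked first among all tested genes with a log2 IP/Input of 12.17 (SE 0.49), but this rests on a single Input count. It had 0, 0 and 1 counts in Input and 98, 85 and 80 in IP. The ratio of pooled CPM was 15394, with an exact 95% interval of 2739 to 610326, which also holds the ratio of Gm10717, 4522. The order of these leading genes is therefore not resolved by the Input depth.

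The other plus-strand genes were in the same position. Gm10719 had 1, 2 and 1 Input counts and 46, 106 and 68 IP counts. Gm10715 had 0, 1 and 1 against 51, 76 and 36. Gm17535 had 1, 0 and 0 against 36, 41 and 20. In each of these the lowest IP library was well above the highest Input library, although the IP libraries are far shallower. Gm10718 had 1, 1 and 0 Input counts and 18, 22 and 39 IP counts, and the lowest log2 IP/Input of the 9, 9.73 (SE 0.67).

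For a pair of genes no ratio could be formed, because all Input libraries were at 0. Gm10720 had 6, 12 and 10 counts in IP, which is at least 546-fold higher than the floor of 3 counts over the pooled Input libraries. Gm10721 had 2, 5 and 3 counts in IP, at least 195-fold higher than the same floor, and did not pass the filter. A floor of 3 counts stood for 0.0863 to 0.103 CPM in a single Input library and 5.06 to 6.34 CPM in a single IP library. Gm10721 was thus near the floor in IP too, with 4.22, 8.50 and 5.06 CPM.

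Levels were compared between genes per kb of gene span, since the deposited counts cover whole spans. In IP, Gm10722 was highest at 186 ± 31.2 CPM per kb (SD, n = 3). Gm10717, Gm26870 and Gm10715 followed at 71.8 ± 15.6, 71.1 ± 9.62 and 68.9 ± 24.3 CPM per kb, within their spread of each other. Gm17535 (49.6 ± 18.9) and Gm11168 (45.02 ± 10.9) also overlapped each other, as did Gm10719 (31.2 ± 10.5) and Gm10718 (28.2 ± 9.71). Gm10720 (10.7 ± 2.49) and Gm10721 (4.92 ± 1.88) were lowest, and the highest level was 37.8 times the lowest.

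How well reads can be placed also differed between the genes, and its part in these levels was not tested. Gm10721 had no 31-mer that occurs once in the genome. The share of 31-mers found once was 2.55% in Gm17535, 4.08% in Gm10718, 4.98% in Gm10720, 5.44% in Gm10722 and 10.1% in Gm10717. Gm10722, with the highest level per kb, had a smaller share than Gm10717, which came second, while Gm10721, with no such 31-mer, was lowest. Gm10719, Gm26870, Gm11168 and Gm10715 lay between them at 5.92%, 6.39%, 7.36% and 8.30%. Over the first 38 kb as a whole, 6.64% of 31-mers were found once and the median word had 15 copies.

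Counts were kept by strand, which let both strands of the repeat be set side by side. Elsewhere in the genome, 2059 of 4252 genes nested without exon overlap in a gene of the opposite strand had Input counts, but only 5 of 5037 nested in a gene of the same strand had any. Read as a stranded count over whole gene spans, the counts of Gm26870 are minus-strand RNA over 38032 bases, and the counts of the 9 plus-strand genes are plus-strand RNA over 24152 bases. The check on nested genes used Input counts alone, so for the IP libraries this reading is an assumption. The minus strand gave 0.0388 CPM per kb in Input and 71.1 in IP. The plus strand gave 0.0140 CPM per kb in Input and 55.9 in IP.

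With counts read by gene strand, both strands had higher levels in IP. The window was chosen by the ratio of Gm10717 and Gm11168, both on the plus strand, which gave 927 and 263 of its IP counts, so the balance between strands is not independent of that choice and is a description. The plus strand held 20.97%, 20% and 14.04% of family counts in Input and 37.1%, 32.0% and 30.7% in IP, so that the 3 Input values lay below the 3 IP values. Per kb, the minus strand stood 2.78 times above the plus strand in Input and 1.27 times in IP. The Input shares rest on 8 to 13 plus-strand counts per library.

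**Figure D2:**
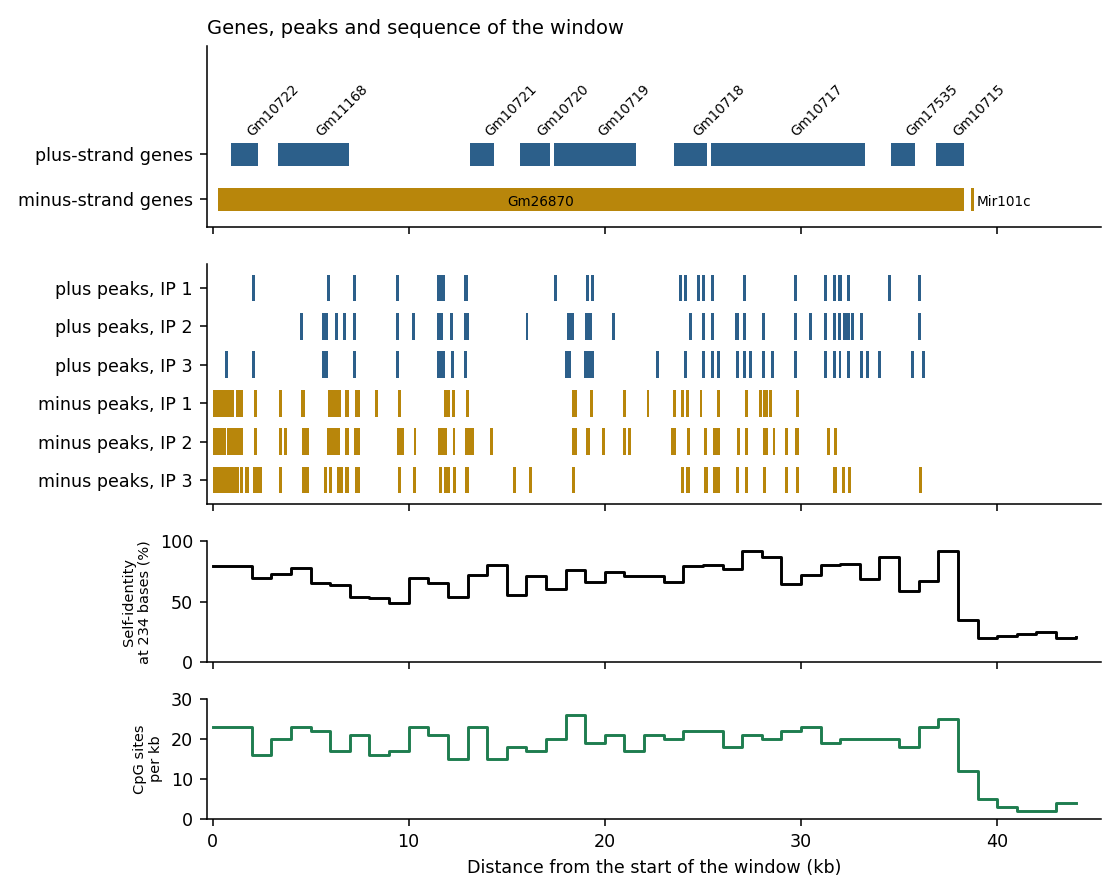
Map of the window by distance from its start (kb). From the top, plus-strand (blue) and minus-strand (gold) genes, distinct peaks of each IP replicate by recorded strand, the share of bases that match the base 234 bases later in 1-kb bins, and CpG sites per kb. Peaks are scattered over the 234-base repeat and stop before the drop in self-identity and CpG sites at 38 kb.

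The authors gave a separate peak list for each IP replicate. The peaks come from the same IP libraries as the counts, so they do not add an independent line. The window held 49, 61 and 63 distinct peaks in replicates 1, 2 and 3, after repeated lines were dropped from 52, 67 and 66. That was 109, 136 and 140 peaks per 100 kb, against 0.413, 0.572 and 0.587 in the rest of the genome. When the chromosomes were cut into stretches as long as the window, none held as many peaks in any replicate, and the next stretch held 20 to 25. Unplaced contigs were left out of that ranking. One of them, of 114452 bases and with sequence shared with the window, held 125, 136 and 125 distinct peaks, so such density is not particular to the window.

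All of these peaks were centred in the 234-base repeat. None was centred beyond 38 kb in any replicate. In the 31-base repeat 19.7% of 31-mers were found once, against 6.64% in the satellite, and the part of read placement in this difference was not tested. The next peak on chromosome 9 started at position 3080300 in replicate 1, 3417025 in replicate 2 and 3533708 in replicate 3. Peaks covered 20.4%, 26.7% and 25.4% of the window in the 3 replicates.

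Merging overlapping peaks of the same recorded strand gave 89 regions, and 31 of them (34.8%) were held by all 3 replicates. Outside the window 4.79% of regions were. Where peaks lie denser, those of different replicates overlap more readily. No allowance was made for that, so these shares do not measure how reproducible the window is. These 31 regions, 14 plus and 17 minus, were 150 to 1563 bases wide with a median of 233, and every one contained at least 1 CpG site. The first 38 kb held 20.2 CpG sites per kb throughout, so nothing particular to the regions is read from that. The widest, at chr9:3000001-3001563, covered the downstream end of Gm26870 and part of Gm10722 and held 36 CpG sites. Gm10717 contained 11 of the regions, and it is also the longest plus-strand gene. Per kb of span it had 1.397, beside 1.42 in Gm10722 and 1.39 in Gm11168. Gm10720, Gm17535 and Gm10715 contained none.

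A pair of these regions had every base covered in all 3 replicates, and they are shown here with CpG sites in capitals. The first lies on the minus strand at chr9:3003397-3003546 in Gm11168 and is printed as the minus strand reads. The second lies on the plus strand at chr9:3031150-3031307 in Gm10717.
minus peak region: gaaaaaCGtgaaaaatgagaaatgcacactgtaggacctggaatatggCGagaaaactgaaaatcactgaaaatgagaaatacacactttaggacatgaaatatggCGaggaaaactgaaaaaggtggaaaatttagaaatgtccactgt
plus peak region: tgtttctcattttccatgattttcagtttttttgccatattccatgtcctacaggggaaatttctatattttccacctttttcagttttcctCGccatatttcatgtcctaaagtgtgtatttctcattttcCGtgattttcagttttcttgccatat
The minus region held 3 CpG sites and 12.7% C as printed, the plus region 2 CpG sites and 21.5% C. On the opposite strands the C shares would be 23.3% and 12.03%, and which strand the RNA had is not known from the peaks. They matched the repeat unit at 98.0% and 95.6% of bases. Neither contained a 31-mer found once in the genome, which held for 16 of the 31 regions.

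Recorded peak strand did not follow gene strand in these lists. Among peaks elsewhere that lay inside exactly 1 gene, the recorded strand was that of the gene in 42.1%, 39.5% and 40.5% of cases in replicates 1, 2 and 3. In the window, 59.1%, 69.0% and 60.0% of plus peaks overlapped a minus peak of the same replicate, with a median offset of the minus start of 88, 83.5 and 83.5 bases. The minus peak started later in 10 of 13, 18 of 20 and 16 of 18 such pairs. Plus and minus peaks were thus often offset pairs, and the strand of the RNA was taken here from the counts and not from the peaks. For the IP counts that strand was not checked.

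Within the 234-base unit, plus peaks gathered at 1 place. Each peak of up to 170 bases was placed on the printed unit by aligning the 60 bases around its centre. The stretches described were picked in replicate 1, so only replicates 2 and 3 are independent of that choice. In replicate 1 the centres of 16 of 19 plus peaks fell on the 20 bases from position 162 to position 181 of the unit, counted from 1 at its first base. The same stretch held 16 of 23 plus centres in replicate 2 and 15 of 26 in replicate 3, and no minus centre in any replicate. It makes up 8.08% of all satellite positions and 7.19% of the starts of 31-mers found once. A peak centre is not where its reads start, so the second share does not show how well those reads can be placed. The 47 plus centres in the stretch came from 27 places in the window, 15 of which were seen in 1 replicate only.

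Of minus peaks, 18 of 27, 16 of 32 and 19 of 33 were narrow enough to be placed in replicates 1, 2 and 3. Of plus peaks, 19 of 22, 23 of 29 and 26 of 30 were. Among the peaks placed, minus centres were spread more widely. The stretch of 78 bases that held most of them in replicate 1, positions 17 to 94, took 11 of 18 there, 9 of 16 in replicate 2 and 11 of 19 in replicate 3, against 34.1% of all satellite positions. Stretches of 78 bases picked anew in replicates 2 and 3 held 68.8% and 73.7% of minus centres. Picked in the same way, they held 87.0% and 88.5% of plus centres. The printed unit has CpG sites at positions 3, 45, 61, 76, 179, 191 and 219. The plus stretch thus contains the CpG site at position 179, and plus peaks, which were mostly near 150 bases wide, reach beyond it on both sides.

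**Figure D3:**
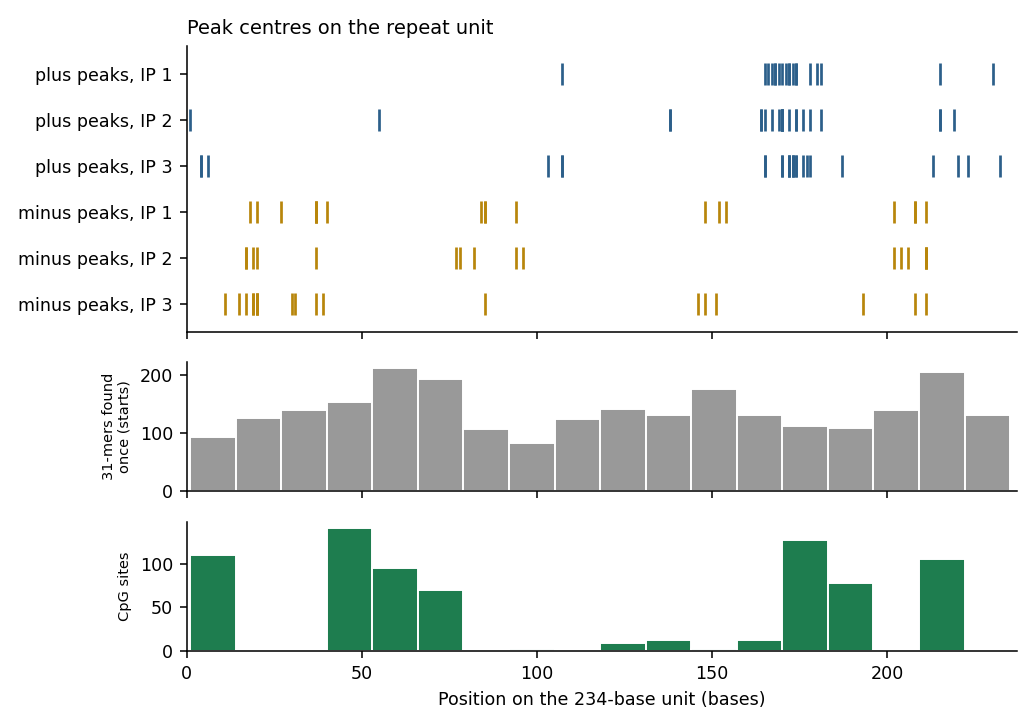
Position on the 234-base repeat unit (bases) of the centres of peaks up to 170 bases wide, by recorded strand and IP replicate (1 tick per peak), above the starts of 31-mers found once in the genome and the CpG sites of the first 38 kb (counts in equal bins). Plus centres gather between positions 162 and 181 in all 3 replicates, where no minus centre lies.

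Copies of the repeat also lie in genes outside the window. Such genes elsewhere were taken by sequence, as those with at least 20% of their exonic 31-mers also in the window, and 3 were found. Gm10800 (chr2:98666547-98667301) shared 43.4%, Gm10801 (chr2:98662237-98664083) 30.3% and Gm21738 (chr14:19415857-19418930) 56.3%. All are predicted gene models annotated as protein coding. Read on the plus strand of the genome, pieces of Gm10800 and Gm21738 matched the unit in reverse orientation, with a median identity of 96.6% and 93.6%. Both are minus-strand genes, so the unit runs forward along them, as in the plus-strand genes of the window. Gm10801 holds the unit in part, with 33.3% of its 15 pieces at 80% identity or more. All 3 were called higher in IP, where 39.9% of tested genes were.

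Gm10800 had 144, 189 and 108 counts in Input and 5619, 6563 and 6113 in IP, which made it the second most abundant gene of the IP libraries. Its log2 IP/Input was 10.27 (SE 0.09; adjusted p = 2.91e-20, edgeR). Gm10801 had 47, 46 and 44 counts in Input and 2055, 2590 and 2238 in IP (log2 10.54, SE 0.09; adjusted p = 2.29e-20, edgeR). Gm21738 had 36, 49 and 38 counts in Input and 1377, 1567 and 1640 in IP (log2 10.11, SE 0.08; adjusted p = 1.58e-20, edgeR). Together they took 18072 ± 1134 CPM in IP against 7.30 ± 1.63 in the Input libraries (SD, n = 3), a ratio of 2477 against 2235 for the window. Reads of these genes and of the window can be exchanged in alignment, so the genes are not independent of each other.

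With the window added, these genes of major-satellite sequence made up 2.21% ± 0.146 of gene counts in IP (SD, n = 3). In Input they made up 0.000996%, 0.00103% and 0.000711%.

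**Figure D4:**
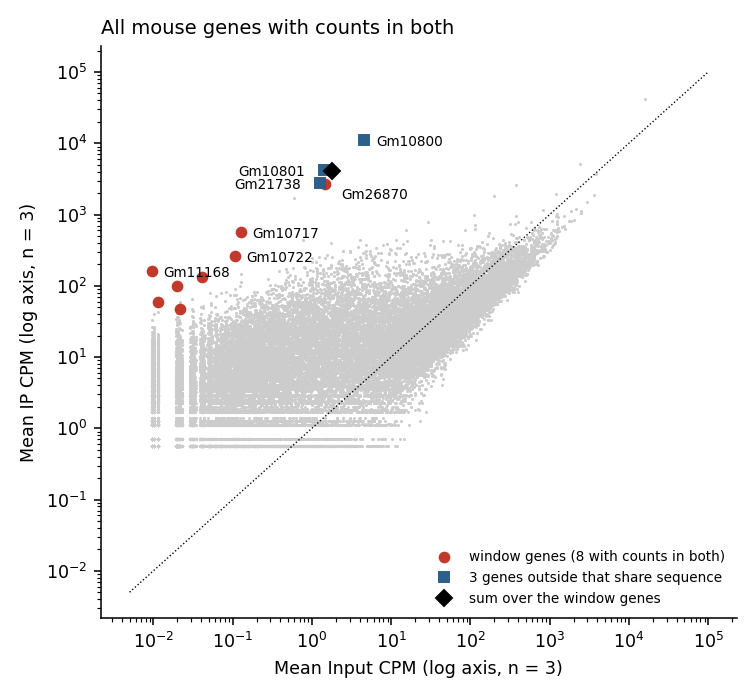
Mean IP against mean Input CPM (log axes, n = 3 libraries each) for the 26677 mouse genes with counts in both. Window genes (red), the 3 genes outside that share sequence with them (blue) and the sum over the window genes (black) lie at the upper edge of the cloud, and the dotted line marks equal values.

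Peaks were also looked up outside the window by sequence. Of 35052 regions assessed there, 120 had at least 20% of their 31-mers in the window, and 105 of these lay on 1 unplaced contig of 114452 bases that itself carries 15267 words of the window. The other 15 lay on chromosomes 2, 9, 12 and 14. All 15 were held by all 3 replicates, as were 62 of the 105 on the contig and 4.79% of all regions outside the window. Here too the shares make no allowance for peak density. Of the 15 on chromosomes, 13 lay in Gm10800, Gm10801, Gm21738 or Gm33838, and a pair at chr12:3109778-3110130 lay in no gene.

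The genes whose profile over the 6 libraries was most like that of the family sum were ranked by the root mean square difference of centred log2(CPM + 1), among 16203 tested genes outside the window with a mean of at least 5 CPM. The first 4 were Gm10801, Gm21738, Gm33838 and Gm10800, at 0.14, 0.20, 0.22 and 0.33, where the median gene stood at 5.10. Gm33838, a long non-coding RNA gene further along chromosome 9 (chr9:35301722-35307599), shared no exonic word with the window but 2.09% of the words of its whole span. It had 23, 16 and 18 counts in Input and 814, 1107 and 889 in IP.

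Genes further along chromosome 9 moved in both directions. Of 22 genes from the end of the window to position 5000000, 9 were tested, 3 were called higher and 5 lower in IP, with a median log2 IP/Input of -1.18, where -0.17 was the median of all tested genes. The 3 of them with most Input counts were Cwf19l2, linked to splicing (log2 -1.18, SE 0.14; adjusted p = 1.19e-06, edgeR), Alkbh8, a tRNA methyltransferase (log2 -2.51, SE 0.18; adjusted p = 2.81e-09, edgeR), and Gucy1a2, a guanylate cyclase subunit that missed the threshold (log2 -0.25, SE 0.12; adjusted p = 0.0622, edgeR). The 3 called higher, named after their values were seen, were the long non-coding gene Gm31138 (log2 5.48), the transcript 4930433N12Rik (log2 3.83) and Gria4, a glutamate receptor subunit (log2 1.89). Gm31138 had 2, 4 and 4 counts in Input and 4, 5 and 7 in IP, and it shared no 31-mer with the window, nor did the other two. With scaling by library size alone, 4 were higher and 3 lower, Gucy1a2 turned to 0.73 and Cwf19l2 missed the threshold.

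Genes for proteins that build or maintain pericentromeric heterochromatin were lower in IP. All 16 of a list with the HP1 genes Cbx1, Cbx3 and Cbx5, the histone methyltransferases Suv39h1 and Suv39h2, Dnmt1 and others were tested, and all 16 were called lower, where 42.1% of tested genes were. Their median log2 IP/Input was -1.97. The list was not compared with genes of like Input level, so nothing particular to heterochromatin genes is read from it. Summed pluripotency markers, given below, were lower in IP too, and summed fibroblast markers were not. Atrx, a chromatin remodeller found at pericentromeric repeats, had 32105, 36312 and 39016 counts in Input and 257, 289 and 276 in IP (log2 -2.13, SE 0.06; adjusted p = 1.04e-13, edgeR). Hells, a remodeller needed for methylation of satellite DNA, had a log2 IP/Input of -2.52 (SE 0.09; adjusted p = 1.12e-12, edgeR). With library size alone as the scale, 13 were called lower and none higher, and the log2 values of Daxx and Incenp, named after their values were seen, turned positive.

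The libraries were checked against their labels by marker genes. Of 8 pluripotency markers, 7 had counts, with a summed level of 1615 to 1639 CPM in Input and 644 to 805 CPM in IP. Sox2 was at 0, but it lies inside Sox2ot on the same strand, as do the nested genes described above. Of 8 fibroblast markers, which feeder cells would carry, 7 had counts, Lum was at 0, and the sum was 53.95 to 56.03 CPM in Input and 57.03 to 81.6 CPM in IP. Their part in the satellite values was not tested.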

How the data were processed

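Deposited were, for each mES cell library, a table of unnormalized counts by gene, which the authors made, and for each IP library a peak list. According to the study's methods, reads were trimmed, aligned to mm10 with spike-ins, cleared of duplicates and split by strand before MACS2 called peaks, with fragments extended to 150 bp. Their own enrichment was scaled to m5C spike-ins, which was not repeated here. The submitters' processing notes name Trimmomatic 0.39, HISAT2 2.1.0 and SAMtools 1.16.1. The study's m5C methods and those notes name no counting tool. Its RNA-seq methods name HTSeq for annotated genes and featureCounts for caRNAs, without saying which made these tables. The tables end with summary lines for reads in no gene, ambiguous reads and reads aligned more than once. The pattern of counts over nested genes (5032 of 5037 same-strand nested genes at 0 in Input) showed that counts cover whole gene spans and use strand, so levels per kb use gene spans in place of exons. The peak lists hold positions and strand, and no usable score.

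Groups came from the library titles, since the antibody label disagreed with them. Positions came from GENCODE M21 on GRCm38, which matched 99.9% of the identifiers, and sequence from the GRCm38 reference of RefSeq. The all-gene test was that of edgeR 4.0.16 under R 4.3.3 (TMM scaling, filterByExpr, quasi-likelihood test, Benjamini-Hochberg adjustment at 0.05) over 20244 genes. The SE of a log2 value is its size divided by the square root of F. DESeq2 1.42.0 was an alternative. Summary lines stayed out of library sizes. The p-values measure only the spread between libraries, which may be technical. Replicates differed beyond counting noise, with chi-square per degree of freedom of 2.03 to 2.37 in Input and 3.80 to 3.89 in IP. Pooled ratios carry exact (Clopper-Pearson) 95% intervals, which use library sizes without TMM factors.

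Every 31-mer of the window was looked up in the whole reference on both strands. The peaks' contig was matched to the reference by a coding gene annotated on it, which read without a stop on that contig alone. Peaks on other unplaced contigs were not assessed (21 regions). Overlapping peaks of 1 recorded strand were merged (minimum overlap 1 bp). Alignments to the repeat unit used edlib 1.3.9.post1.

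Genes named were all window genes, those outside that share sequence, the 3 distal genes and 2 heterochromatin genes with most Input counts, and the 5 most like the family sum, of which 1 is not reported here. The members and lists were chosen with earlier results of these data known. Scripts were tested on simulated data. Alternatives were other scalings, a replicate block, no filter, libraries left out in turn, other sequence thresholds, and other rules for shared peaks. The lookup over whole gene spans was added after seeing the data.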

Additional observations from a re-analysis of the deposited data

How the results depend on the processing

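Among genes named with a value, only Gucy1a2 changed direction, from -0.25 to 0.73 with library size alone, and to 0.44, 0.42 and 0.45 without Input replicates 1, 2 and 3. Cwf19l2, lower as reported, missed the threshold under those same settings. All 87 values of the window genes under other settings stayed above 0, between a log2 IP/Input of 9.30 and 13.73. The family sum, 10.16 as reported, was 10.33 with RLE scaling, 11.13 with library size alone, 9.72 with no filter, 9.62 per all counted records, 10.96 over the 8 listed genes alone, and 10.08 to 10.97 when libraries were left out in turn. Relative to the median of all genes, the reported value was 10.33. That relative value was also 10.33 with RLE and with library size, but 9.13 with no filter and 10.97 to 11.17 without 1 Input library, and the cause of these shifts was not tested.

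Over all genes, library size alone gave 4861 lower calls in place of 8513, so that 67.2% of calls were higher in place of 48.7%, and no filter gave 12677 higher calls in place of 8078. Leaving out libraries gave 9235 to 16165 calls, 4572 to 7875 of them higher and 4663 to 8290 lower. The low end came when any Input library was left out, where 12280 to 12292 genes passed the filter. Of the distal chromosome 9 genes, 3 were lower with library size alone, and 2 to 5 when libraries were left out, 2 without any of the Input libraries. A threshold of 50% of exonic 31-mers left 1 gene outside the window, Gm21738, also higher. With 20% of whole-span 31-mers 2 were left, Gm10800 and Gm21738, and Gm10801 dropped out. Shared peak regions in the window numbered 47 if held by at least 2 replicates and 34 to 41 when a replicate was left out. Regions outside with at least 50% shared 31-mers numbered 18.

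Same-numbered Input and IP libraries correlated in their deviations at 0.021 to 0.028, below 0.1, so the numbers were not taken as pairs, although each library correlated best with its own number. A replicate block gave 15435 calls and a family value of 10.15.

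Depth limits the single genes most. Of the 10 window genes with counts, 6 had under 3 counts over all Input libraries together.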
